A study of Hordeum vulgare with 24 samples.

Results

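Young spikes of barley plants mutant for HvMADS1 (mads1) were compared with wild-type spikes (WT) at Waddington stage W2.5 under the cool regime. The comparison uses 6 of the 24 RNA-seq libraries of the series, 3 of each genotype, chosen by genotype, temperature and stage as labelled and by no measured value. All plants were of the cultivar Golden Promise, kept at day and night temperatures of 15 °C and 10 °C under a 16 h photoperiod. Each library was made from the total RNA of 15 to 20 spikes and is a biological replicate per the labels. The labels do not say what kind of mutation mads1 carries, how many independent mutant lines were used or at what time of day spikes were taken. The question was which genes differ between mads1 and WT in the cool regime. Other libraries of the series cover the warm regime (25 °C and 20 °C). An effect of HvMADS1 and other differences between the mutant and WT plants cannot be told apart here.

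HvMADS1 is a MADS-box transcription factor of the SEPALLATA group. These proteins form complexes with other MADS-box proteins, among them the APETALA1, AGAMOUS and APETALA3 groups, and such complexes set the identity of spikelet meristems and floral organs in grasses. W2.5 lies early in spikelet differentiation, when floral organ genes are only starting to be transcribed, and by W3.5 stamen primordia are present. The deposited tables give gene identifiers without names. The names below come from knowledge of the barley gene families and were checked neither against an annotation nor by sequence, so each name stands for the identifier printed with it.

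The 6 libraries held 15130396 to 19864259 counted reads, and 3 counts, taken as the detection floor, amounted to 0.147 to 0.202 CPM per library. The test was edgeR's quasi-likelihood test in a fit of the 12 cool libraries, with Benjamini-Hochberg adjustment over 17760 genes of the 39734 in the table, and genes with an adjusted p under 0.05 are termed called. Levels are CPM, that is, a gene's reads relative to all counted reads of its library after scaling with TMM factors, and errors of means are SDs over 3 libraries. WT replicate 2 stood apart from the other WT libraries. Its rank correlation with WT replicates 1 and 3 was 0.986 and 0.988, against 0.996 between those 2 and 0.991 to 0.994 among the mads1 libraries. The values of the main results are therefore also given without WT replicate 2. In such bulk samples, fewer cells of a type and less RNA per cell cannot be told apart.

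The mutated gene itself was lower in mads1. HvMADS1 (HORVU4Hr1G067680) stood at 38.1, 44.1 and 42.0 CPM in WT replicates 1, 2 and 3 and at 15.7, 23.7 and 14.4 CPM in those of mads1. The groups did not overlap, and mads1 kept 0.435 of the WT level. As a log2 fold change this was -1.20 (SE 0.15, edgeR adjusted p = 0.00015), and without WT replicate 2 it was -1.15 (edgeR adjusted p = 0.000601). This call held when any 1 of the 6 libraries was left out (-1.46 to -1.07), but it was lost with the warm libraries in the fit (edgeR adjusted p = 1 with all 24 and 0.24 with 23), while the log2 fold change was -1.21 in both of those fits. The warm libraries enter the estimate of spread in those fits, and their part in the lost call was not tested.

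Among the other SEPALLATA and AGL6 genes, HvMADS6, HvMADS7 and HvMADS8 were nearly silent in mads1 and low but present in WT. HvMADS6 (HORVU6Hr1G066140), of the AGL6 group that in rice acts in floral meristem and organ identity, read 9.80, 14.5 and 5.74 CPM in WT and 0.495, 0.873 and 0.307 CPM in mads1. Its 3 mads1 libraries held 28 counts in all, and the highest of them lay well below the lowest WT library. On the log2 scale the change was -4.12 (SE 0.37, edgeR adjusted p = 7.79e-06), and without WT replicate 2 it was -3.77 (edgeR adjusted p = 4.91e-06). No omission of a single library ended this call.

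HvMADS8 (HORVU5Hr1G076400) and HvMADS7 (HORVU7Hr1G054220), whose rice counterparts act in the inner floral organs, showed the same order at lower levels. HvMADS8 read 1.32, 3.63 and 0.527 CPM in WT against 0.0619, 0.233 and 0 CPM in mads1. WT replicate 2 was 3.93 times the mean of the other 2 WT libraries. On the log2 scale HvMADS8 changed by -4.01 (SE 0.83, edgeR adjusted p = 0.0109). It was -3.13 (edgeR adjusted p = 0.0118) without WT replicate 2 and lost its call without mads1 replicate 3 (edgeR adjusted p = 0.0566).

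HvMADS7 had no read in any mads1 library and stood at 0.735, 3.03 and 0.211 CPM in WT, the last of these being 4 reads. With the mads1 group set to 3 counts in all, HvMADS7 was at least 21.9-fold lower in mads1, and at least 7.82-fold lower without WT replicate 2. The call (edgeR adjusted p = 0.0366) held without WT replicate 2 (edgeR adjusted p = 0.0255). Leaving out any 1 mads1 library ended it, with edgeR adjusted p values up to 0.102.

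The last pair of SEPALLATA genes was abundant in both genotypes. HvMADS5 (HORVU7Hr1G025700) read 18.9, 24.1 and 16.3 CPM in WT and 14.8, 11.9 and 11.2 CPM in mads1. The groups did not overlap, but the difference was not called (log2 fold change -0.64, SE 0.18, edgeR adjusted p = 0.0603), and it was -0.47 without WT replicate 2. The difference of HvMADS5 was called lower by DESeq2, and by edgeR when WT replicate 3 was left out (edgeR adjusted p = 0.0442). HvMADS34 (HORVU5Hr1G095710), whose rice counterpart acts in the inflorescence and spikelet meristem, read 80.6, 102 and 82.1 CPM in WT and 91.1, 118 and 110 CPM in mads1. These groups overlapped through WT replicate 2. The log2 fold change of 0.27 was not called (edgeR adjusted p = 0.208). Without WT replicate 2 it was 0.38 and was called higher in mads1 (edgeR adjusted p = 0.0365).

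**Figure D1:**
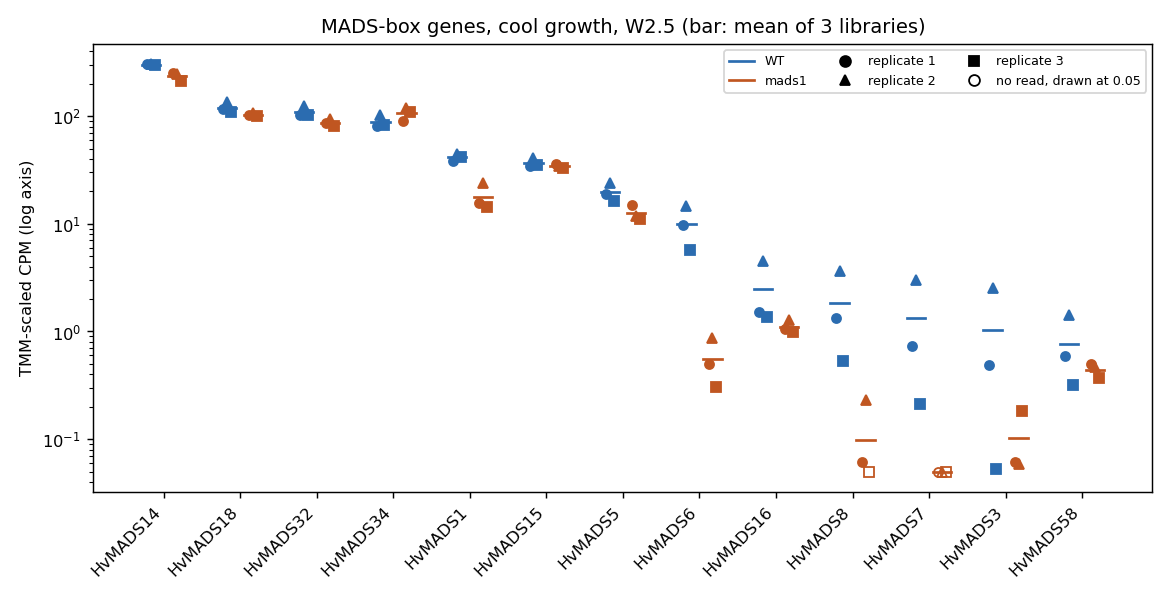
TMM-scaled CPM (log axis) of 13 MADS-box genes in each of the 6 libraries, WT in blue and mads1 in orange, with the symbol giving the replicate and the bar the mean of 3 libraries. HvMADS6 lies between 5.74 and 14.5 CPM in WT and between 0.307 and 0.873 CPM in mads1, and the triangle of WT replicate 2 is the highest WT point of all 13 genes.

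The APETALA1 group marks the transition to a reproductive meristem and was high in both genotypes. HvMADS14 (HORVU5Hr1G095630), the vernalization gene VRN1, had the highest length-scaled level of the 13 genes in WT, at a mean of 358 FPKM (counts scaled by library total and gene length). It read 303, 303 and 298 CPM in WT and 252, 245 and 212 CPM in mads1. The groups did not overlap, and the log2 fold change of -0.35 (SE 0.09) stood at the threshold, with an edgeR adjusted p of 0.0496. Without WT replicate 2 the change was -0.34 and was not called (edgeR adjusted p = 0.0684), and omission of any other single library of the 6 ended the call too.

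HvMADS18 (HORVU0Hr1G003020) stood at 120 ± 12.8 CPM in WT and 103 ± 2.87 in mads1 (SD, n = 3), and HvMADS15 (HORVU2Hr1G063800) at 37.0 ± 3.52 and 34.4 ± 1.55. Neither was called (edgeR adjusted p = 0.185 and 0.671). Without WT replicate 2 the log2 fold change of HvMADS18 went from -0.23 to -0.14 and that of HvMADS15 from -0.11 to -0.03.

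In 3 of the 4 floral organ genes, WT replicate 2 carried most of the difference between the genotypes. HvMADS3 (HORVU3Hr1G026650), of the AGAMOUS group that sets stamen and carpel identity, read 0.490, 2.56 and 0.0527 CPM in WT and 0.0619, 0.0582 and 0.184 CPM in mads1. WT replicate 3 held a single read and lay among the mads1 libraries. The log2 fold change of HvMADS3 was -3.13 (SE 1.09, edgeR adjusted p = 0.144) and -1.40 without WT replicate 2, neither being called. It was called without WT replicate 3 (edgeR adjusted p = 0.0205). For HvMADS58 (HORVU1Hr1G029220), of the same group, the change went from -0.71 to -0.04 when WT replicate 2 was left out.

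HvMADS16 (HORVU7Hr1G091210), of the APETALA3 group that sets lodicule and stamen identity, read 1.52, 4.51 and 1.37 CPM in WT and 1.05, 1.28 and 0.982 CPM in mads1. Its change of -1.08 in log2 terms (SE 0.41, edgeR adjusted p = 0.187) became -0.38 without WT replicate 2. HvMADS32 (HORVU3Hr1G068900), of a group found in grasses that acts in floral organs in rice, was the most abundant of these 4 per length, and read 102, 123 and 102 CPM in WT and 85.8, 94.0 and 80.6 CPM in mads1. Its groups did not overlap. HvMADS32 differed by -0.33 in log2 terms (SE 0.09, edgeR adjusted p = 0.063), or -0.23 without WT replicate 2, and was not called.

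Over the 13 MADS-box genes, 5 were called lower in mads1 and none higher (edgeR; 11 had an unadjusted p under 0.05, and DESeq2 called 9). The background was 4.82% of all tested genes called, 2.21% lower and 2.61% higher. Of all 17760 genes, 2935 had an unadjusted edgeR p under 0.05, and DESeq2 called 1077. The median log2 fold change was -0.71, against 0.01 over all genes tested, and 12 of the 13 changes were negative. In 9 of the 13 the groups did not overlap, which held for 19.6% of all genes tested. Without WT replicate 2, 4 genes were called lower (HvMADS1, HvMADS6, HvMADS7 and HvMADS8) and HvMADS34 higher, and the median was -0.38. WT replicate 2 was the highest WT library in 13 of the 13, compared with 39.7% of all genes tested. HvMADS3, HvMADS7, HvMADS8 and HvMADS58 did not pass the filter on low counts in the 6 compared libraries. They were tested because they passed it with the W3.5 libraries in the fit. The counts and medians above include them, and HvMADS7 and HvMADS8 are among the 5 called lower. The genes were chosen with earlier results of these data known, so these counts describe them and are no test of the family.

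**Figure D2:**
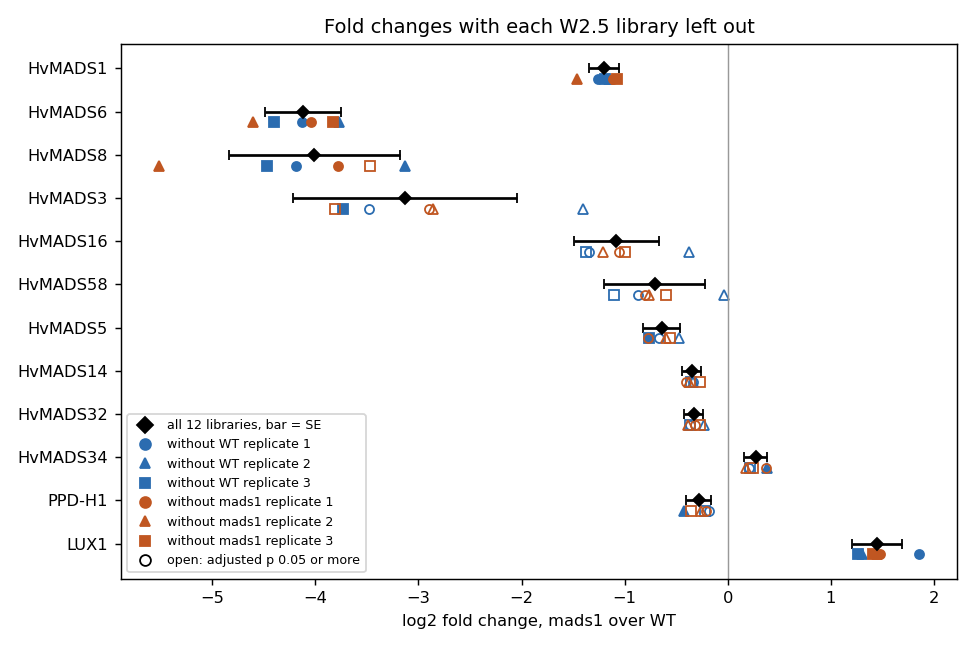
Log2 fold change of mads1 over WT for 12 named genes, with all 12 cool libraries (diamond, bar = SE) and with each of the 6 W2.5 libraries left out (coloured symbols, open where the edgeR adjusted p is 0.05 or more). HvMADS1, HvMADS6 and LUX1 stay filled throughout, and HvMADS3, HvMADS16 and HvMADS58 move toward 0 without WT replicate 2.

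Genes of spike architecture were not called in mads1. By edgeR and by DESeq2 the count was 0 of the 5 tested, and 1 gene had an edgeR p under 0.05 before adjustment. Of all 17760 genes, edgeR called 4.82%, DESeq2 called 1077, and 2935 had an unadjusted edgeR p under 0.05. A count of 0 of 5 therefore does not set these genes apart from the rest. Their log2 fold changes ran from -0.06 to 0.26, and from -0.09 to 0.36 without WT replicate 2. VRS1 (HORVU2Hr1G092290), a homeodomain protein that suppresses lateral spikelets in 2-rowed barley, stood at 6.84 ± 1.46 CPM in WT and 7.19 ± 0.64 in mads1. VRS4 (HORVU3Hr1G016690), a LATERAL ORGAN BOUNDARIES protein that acts upstream of VRS1, read 29.6, 28.6 and 29.2 CPM in WT and 37.1, 30.7 and 36.9 CPM in mads1. Although these groups did not overlap, the difference of VRS4 was not called (0.26, SE 0.10, edgeR adjusted p = 0.192).

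VRS2 (HORVU5Hr1G081450), of the SHORT INTERNODES family, was at 55.6 ± 5.70 CPM in WT and 61.0 ± 4.61 in mads1. INT-C (HORVU4Hr1G007040), the barley TEOSINTE BRANCHED1 counterpart, was at 8.10 ± 1.70 and 7.74 ± 0.402 CPM. HvCEN (HORVU2Hr1G072750), of the TERMINAL FLOWER1 group that keeps meristems indeterminate, read 36.4, 59.5 and 37.4 CPM in WT and 60.1, 39.0 and 43.0 CPM in mads1. The spread of HvCEN within each genotype was larger than the difference between the means. The sign of the change reversed for VRS1 and INT-C without WT replicate 2, and for HvCEN without WT replicate 1 or 3 or mads1 replicate 1.

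Of the clock and flowering-time genes, LUX1 (HORVU3Hr1G114970), a component of the evening complex of the circadian clock, was higher in mads1. It read 58.0, 30.6 and 28.0 CPM in WT and 101, 106 and 112 CPM in mads1, so that every mads1 library lay above every WT library. The level of LUX1 was 2.73-fold that of WT, a log2 change of 1.45 (SE 0.24, edgeR adjusted p = 0.00212). The change was 1.30 (edgeR adjusted p = 0.00799) without WT replicate 2 and 1.86 without WT replicate 1, and the call held in each of the 6 omissions. At W3.5 the level was 7.13 ± 1.92 CPM in WT and 8.63 ± 2.29 in mads1, and the difference there was not called (edgeR adjusted p = 0.539). The W2.5 change minus the W3.5 change, 1.16 in log2 terms (SE 0.38), was not called either (edgeR adjusted p = 0.228).

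The other evening complex gene, ELF3 (HORVU1Hr1G094980), stood at 50.8 ± 8.96 CPM in WT and 50.3 ± 6.31 in mads1 and was not called (edgeR adjusted p = 0.973). PPD-H1 (HORVU2Hr1G013400), the pseudo-response regulator of the photoperiod pathway, read 188, 132 and 180 CPM in WT and 125, 135 and 154 CPM in mads1. WT replicate 2 lay within the mads1 range. The change of PPD-H1 was not called with all libraries (-0.28, edgeR adjusted p = 0.265) and was called lower without WT replicate 2 (-0.42, edgeR adjusted p = 0.0185). HvFT1 (HORVU7Hr1G024610), the florigen gene, had no read in any of the 12 cool libraries. Because sampling times are not given, the part of time of day in the levels of clock genes was not tested.

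Over all genes, 856 of 17760 were called (4.82%), 464 higher and 392 lower in mads1. Of these, 276 were higher and 190 lower by 2-fold or more. The groups did not overlap in 853 of the 856, and in 3473 of all 17760 tested (19.6%). The 856 were picked by a test on the same libraries, so non-overlap among them adds no support. Left without WT replicate 2, the fit called 1114 genes, 617 higher and 497 lower. Of the 856, 733 were also called in that fit, 85.6% of the one set and 65.8% of the other. All 856 kept their sign in it, and 3 changed in size by more than 1.5 times. Omission of any other single library of the 6 gave 572 to 697 calls. The fit of the 6 compared libraries alone called 574, of which 560 were among the 856.

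Of all 17760 genes tested, WT replicate 2 was the highest WT library in 39.7% and the lowest in 41.4%. Among the 392 genes called lower in mads1, it was the highest in 141 (36.0%) and the lowest in 176 (44.9%). Among the 464 called higher, it was the highest in 148 (31.9%) and the lowest in 136 (29.3%). These counts are over genes already called, and a gene in which 1 WT library stands apart has more spread and is less readily called, so they do not measure how WT replicate 2 acts on the calls.

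**Figure D3:**
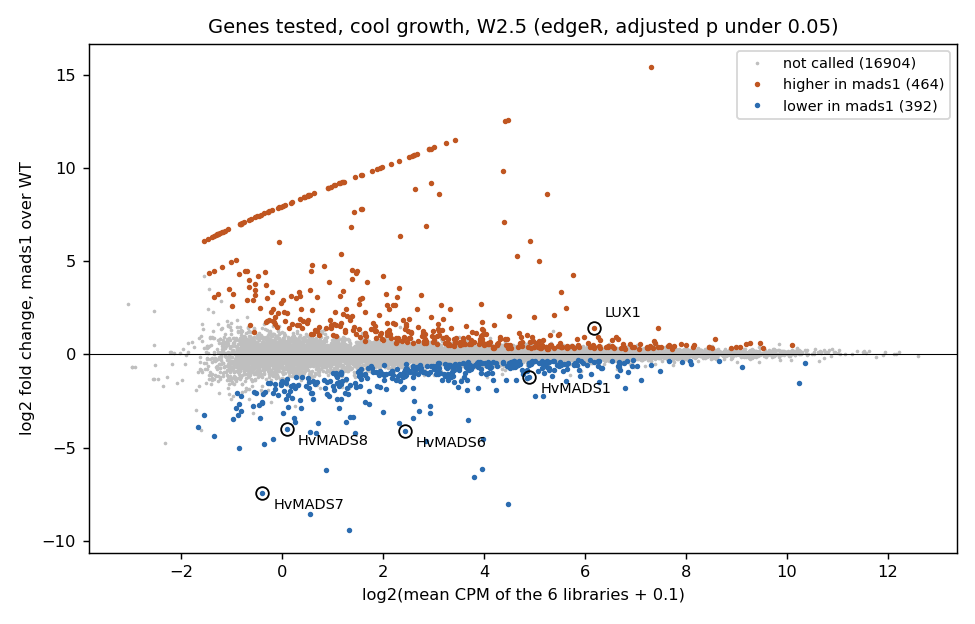
Log2 fold change of mads1 over WT against mean abundance, log2(mean CPM of the 6 libraries + 0.1), for 17760 tested genes, with genes called higher in mads1 in orange (464) and lower in blue (392). The oblique line of orange points at the top is made of genes with no read in WT, whose fitted fold change depends on the prior count and is no measure of size.

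A set of genes was read in mads1 and not at all in WT. Without a table that pairs identifiers with functions, only the identifiers of largest change are given. HORVU2Hr1G031640 stood at 317, 349 and 285 CPM in the 3 mads1 libraries with no read in WT, which is at least 5730-fold higher when the WT group is set to 3 counts in all, and at least 4160-fold without WT replicate 2. HORVU7Hr1G014510 stood at 49.1, 43.1 and 41.4 CPM and had no WT read either, a rise of at least 805-fold (585-fold without WT replicate 2).

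In the other direction, HORVU6Hr1G018030 read 44.9, 38.8 and 47.9 CPM in WT and 0.124, 0.175 and 0.184 CPM in mads1 (log2 fold change -8.03, SE 0.29, edgeR adjusted p = 4.19e-10). HORVU5Hr1G054000 read 29.4, 29.3 and 23.9 CPM in WT and 0.309, 0.349 and 0.184 CPM in mads1 (-6.57, SE 0.21, edgeR adjusted p = 1.59e-10). Each of these 4 identifiers kept its call in all 6 omissions of a single library, and without WT replicate 2 the latter pair stood at -8.11 and -6.53. At W3.5 the first pair read 337 ± 42.1 and 45.9 ± 5.10 CPM in mads1 with no read in WT, and the latter pair was again lower in mads1, by log2 values of -7.91 and -7.29.

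In all, 23 genes had no read in the 3 WT libraries and at least 5 CPM on average in mads1, where they ran from 5.11 to 310 CPM (without TMM scaling). No gene showed the reverse at 5 CPM. At 1 CPM there were 60 such genes in mads1 and 3 in WT. The 23 were spread over the 7 chromosomes written in the identifiers and the unplaced group, with 6 on 2H and 5 on 3H. Of all genes tested, 16.2% lay on 2H and 15.0% on 3H. At cool W3.5, which shares no library with W2.5, 22 of the 23 were again at 5 CPM or more in mads1, and none exceeded 0.112 CPM in WT. In the warm regime 11 of the 23 reached 5 CPM in mads1 at W2.5 and 10 at W3.5, while the highest warm WT mean was 0.914 CPM.

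The warm mads1 groups also differed from each other in these genes. HORVU2Hr1G031640 read 301, 335 and 329 CPM in warm mads1 at W2.5 and 0.407, 1.17 and 58 CPM at W3.5. The 3 mads1 libraries at cool W2.5 did not differ among themselves in this way. The labels do not say whether all mads1 groups came from the same mutant line. For the genes with no read in WT, an effect of HvMADS1 and other differences between the plants cannot be told apart.

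**Figure D4:**
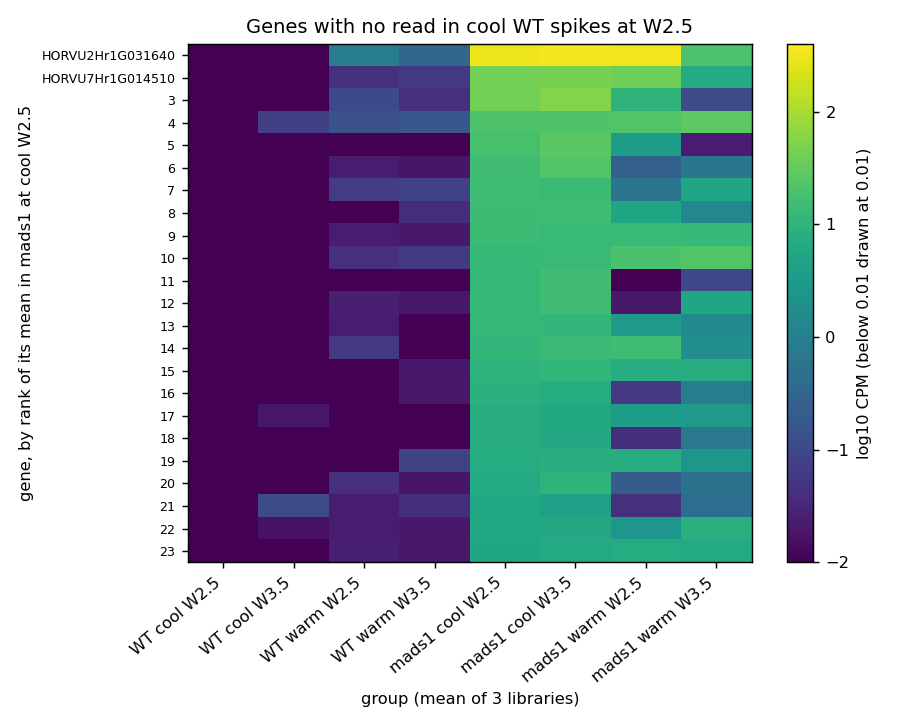
Log10 CPM (group means of 3 libraries, unscaled) of the 23 genes with no read in WT and at least 5 CPM in mads1 at cool W2.5, in all 8 groups. The 4 WT columns stay at or below 0.914 CPM, 22 of 23 genes are at 5 CPM or more in mads1 at cool W3.5, and the warm mads1 columns are mixed.

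How far each library stood along development was described with genes chosen in other libraries. In 11 warm libraries, 144 genes were at least 2-fold higher at W3.5 than at W2.5 in both genotypes, and 103 at least 2-fold lower. Of the 144 rising genes, 140 were tested here, and 25 were called lower and 3 higher in mads1, 20.0% against the 4.82% of all genes. Their median log2 fold change was -0.36, against 0.01 over all genes tested. The list holds 9 of the MADS-box genes. Without these, 22 of 131 were called lower and 3 higher, with a median of -0.32. Of 95 falling genes tested, 9 were called higher and 5 lower, 14.7% against the 4.82% of all genes, with a median of 0.01.

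By library, the median log2(CPM + 0.5) of the 140 rising genes was 1.68, 1.99 and 1.60 in WT at W2.5 and 1.41, 1.27 and 1.09 in mads1. It was 2.45 to 2.54 in WT and 2.18 to 2.32 in mads1 at W3.5. Every mads1 library thus lay below every WT library of its stage, and WT replicate 2 lay closest to W3.5. In the falling genes the medians at W2.5 were 2.72, 2.87 and 2.90 in WT and 2.89, 2.99 and 2.88 in mads1, so that WT replicate 2 was not the most advanced there. Without WT replicate 2, 26 of 141 rising genes were called lower and 7 higher, with a median of -0.23. In the falling genes 9 were called higher and 1 lower, with a median of 0.16. The part of a difference in stage between the sampled WT and mads1 spikes in the genes called above was not tested.

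**Figure D5:**
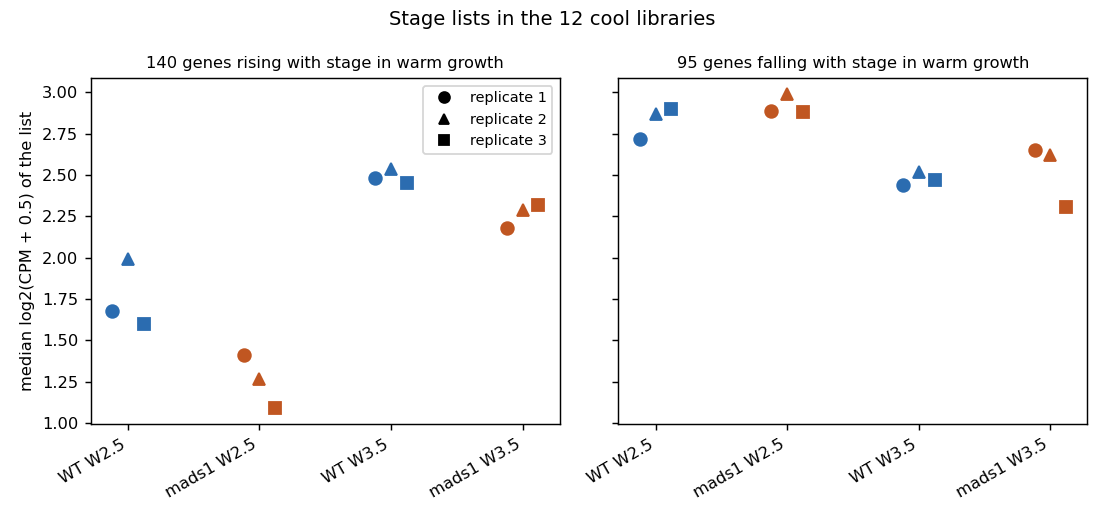
Median log2(CPM + 0.5) of 140 genes that rose and 95 that fell from W2.5 to W3.5 in warm libraries, in each of the 12 cool libraries, with the symbol giving the replicate. In the rising genes the 3 mads1 libraries at W2.5 (1.09 to 1.41) lie below the 3 WT libraries (1.60 to 1.99), and WT replicate 2 is the highest of the 6.

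The difference between genotypes was then compared with that at cool W3.5 by its own test, the genotype by stage term of the same fit. It was called in 28 of 17760 genes (0.158%), HvMADS6 being the only one of the 21 tested genes with a name. Against its change of -4.12 at W2.5, HvMADS6 at W3.5 read 34.8, 36.2 and 32.3 CPM in WT and 28.4, 31.6 and 34.3 CPM in mads1, a change of -0.13 (SE 0.22). The term for HvMADS6 was -3.99 (SE 0.45, edgeR adjusted p = 0.0083) and -3.64 (edgeR adjusted p = 0.00242) without WT replicate 2. It was lost without mads1 replicate 3 of W2.5 (edgeR adjusted p = 0.0606).

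HvMADS7 and HvMADS8 stood at 19.2 ± 1.97 and 13.7 ± 0.329 CPM in WT at W3.5, and at 21.3 ± 5.10 and 16.0 ± 2.63 CPM in mads1. Their genotype by stage terms were not called (edgeR adjusted p = 0.154 and 0.0982). At W3.5, where 10.9% of all genes were called, edgeR called none of the 13 MADS-box genes between genotypes (4 had a p under 0.05 before adjustment, and DESeq2 called 2). Of all 17760 genes, 5083 had an unadjusted edgeR p under 0.05 at W3.5, and DESeq2 called 2375. For HvMADS1 the change there was -0.39 (SE 0.14, edgeR adjusted p = 0.0854). The count of 28 was not stable, since it fell to 0 without mads1 replicate 3 of W2.5 (where 1917 had a p under 0.05 before adjustment) and was 1456 without mads1 replicate 1 of W3.5. DESeq2 called 211.

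The genes called at cool W2.5 were followed in the 3 settings that share no library with it, in a fit of all 24 libraries. The cool W3.5 libraries did enter the filter and the estimate of spread by which the W2.5 genes were called. Calls at cool W3.5 are therefore not fully independent of those at W2.5. At cool W3.5, 771 of the 854 genes tested in both fits (90.3%) had the same sign, against 54.2% of all genes tested. There 297 (34.8%) were called in the same direction and 1 in the opposite one, while 2.42% of all genes were called. Replicate 3 of warm WT at W2.5 stood apart from the rest. With it left out, 504 of 856 were called in the same direction at cool W3.5 and 4 in the opposite one. In that fit 14.0% of all genes were called there. At warm W2.5, 654 (76.6%) had the same sign, against 58.3% of all genes, and 338 were called in the same direction and 26 in the opposite one, with 13.3% of all genes called.

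At warm W3.5, 590 of the 854 (69.1%) had the same sign, against 45.6% of all genes. There 214 were called in the same direction and 23 in the opposite one, with 5.82% of all genes called. Without that warm WT library, 343 of 856 were called in the same direction and 94 in the opposite one, with 24.4% of all genes called. Of the genes higher in mads1 at cool W2.5, 369 of 462 were also higher at warm W3.5, and 221 of 392 lower genes were lower there. The shares of all genes higher and lower in mads1 at warm W3.5 are not given here, so these counts cannot be set against each other. In all, 456 of the 854 (53.4%) had the same sign in the 4 settings, 284 higher and 172 lower in mads1, as had 14.3% of the 17754 genes tested in both fits. Genes called in the fit without WT replicate 2 kept their sign in 92.9% at cool W3.5, 66.5% at warm W2.5 and 58.9% at warm W3.5. Against these, 63.9%, 50.8% and 48.6% of all genes had the same sign. Without replicate 3 of warm WT at W2.5, 80.5% of the genes called with all cool libraries had the same sign at warm W2.5. The share among all genes was 58.8%. In that fit 330 were called in the same direction at warm W2.5 and 13 in the opposite one, with 5.66% of all genes called.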

How the data were processed

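RNA was sequenced from inflorescences in 24 libraries, and 6 of them are compared here. Libraries were made from total RNA with a TruSeq kit per the labels' protocols, and HISAT2 and HTSeq are named in the submitters' processing notes. Their versions, the genome build, the annotation and the strand setting are not given here, so reads of overlapping, antisense or near-identical genes cannot be assigned with certainty. The deposited counts are whole reads per identifier. The deposited FPKM values equal these counts over a fixed length and the library total, within a relative 9.9e-08, and are no independent measurement. In R 4.3.3 with edgeR 4.0.16, the 12 cool libraries were fitted as 4 group means (filterByExpr, TMM, quasi-likelihood F test). The warm libraries, which would enter the estimate of spread, were kept out. An earlier analysis had found a warm WT library apart from the rest and warm mads1 libraries unlike each other. With all 24 libraries, 418 genes were called. SEs were derived from the log2 fold change and F. Members, lists and tests were chosen with earlier results of these data known. Named are all tested members of lists of 23 identifiers (the one taken for VRS3 was not analysed here) and the 2 identifiers of largest change each way with 5 CPM or more and groups that did not overlap. Alternatives were other scaling, no filter, robust moderation, DESeq2 1.42.0, limma 3.58.1 on log2(FPKM + 1) or (FPKM + 0.1), other sets of libraries and a replicate block. Deviations from the group mean correlated at r = -0.442, -0.0849 and 0.216 between same-numbered WT and mads1 replicates. Between differently numbered ones r ran from -0.366 to 0.423. With 3 libraries per group such values cannot exclude pairing, and the samples were treated as unpaired. No library was a duplicate of another (chi-square per gene of 5.58 to 24.8 between replicates). Floors cover counting error only. The fit was tested on simulated counts.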

Additional observations from a re-analysis of the deposited data

Results flagged for a closer look

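HvMADS6 was singled out because its genotype difference in cool growth differed between the stages by a test of the difference itself. The log2 fold change of mads1 over WT was -4.12 at W2.5 and -0.13 at W3.5, a difference of -3.99 (SE 0.45, edgeR adjusted p = 0.0083, n = 3 libraries per group). It was called in the fits without each of the other 11 cool libraries but not without mads1 replicate 3 of W2.5 (-3.70, edgeR adjusted p = 0.0606), nor with all 24 libraries (-4.05, edgeR adjusted p = 0.0941). HvMADS6 is 1 of the rising stage genes, whose median level was lower in every mads1 library than in every WT library of its stage, and the part of stage in this difference was not tested.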

How the results depend on the processing

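The count of genes called stayed within 1.5 times of 856 in every fit of the 12 cool libraries or fewer, with 572 to 1114 when 1 of the 6 libraries was left out. It was 418 (259 higher, 159 lower) with all 24 libraries and 1047 with 23. With 1 of the 6 libraries left out, genes called lower ranged from 243 (without mads1 replicate 2) to 497 (without WT replicate 2), and other fits gave 159 (all 24 libraries) to 517 (23 libraries). Members of the MADS list called were 3 with robust moderation, all 24 libraries or the replicate block, 2 with the 6 libraries alone, with or without WT replicate 2, 9 with DESeq2, and 2 to 6 with 1 library left out. HvMADS3, HvMADS7, HvMADS8 and HvMADS58 did not pass the filter in the fit of the 6 alone, which is part of that lower count. Genotype by stage calls numbered 88 without a filter, 0 with all 24 libraries (761 at an unadjusted p under 0.05), 85 with 23, 211 with DESeq2, 2 with the replicate block, and 0 to 1456 with 1 library left out. With the replicate block 713 genes were called, and HvMADS7 and HvMADS14 lost their calls. Whether replicate numbers pair the samples is not known. Genes with no read in WT numbered 60 at 1 CPM and 14 at 10 CPM, and those with no read in mads1 3 at 1 CPM. Of the called genes, 504 at cool W3.5 and 343 at warm W3.5 were called in the same direction with 23 libraries, and 4 and 94 in the opposite one. Among rising stage genes, 7 were called higher without WT replicate 2, and 45 higher and 92 lower with a list from mads1 warm libraries alone. That list is longer, with 586 rising genes tested against 140, and 23.4% of them were called against 20.0%. Among falling genes 1 was called lower without WT replicate 2, and 53 higher and 11 lower with the list from mads1 warm libraries alone. There 303 falling genes were tested against 95, and 21.1% were called against 14.7%. Signs reversed only in genes that were not called: VRS1 (-0.09) and INT-C (0.11) without WT replicate 2, HvCEN without WT replicate 1 (-0.03), WT replicate 3 (-0.01) or mads1 replicate 1 (-0.11), and ELF3 without WT replicate 1 or 3 or mads1 replicate 1 (0.06) or mads1 replicate 2 (0). Over the omissions of 1 library their log2 fold changes ran from -0.09 to 0.20 for VRS1, -0.17 to 0.11 for INT-C, -0.11 to 0.36 for HvCEN and -0.15 to 0.06 for ELF3. Where not said, the cause was not tested. HvMADS7, HvMADS8 and HvMADS3 rest on 64, 91 and 49 WT counts, and a difference at such depth is imprecise. The alternatives with WT replicate 2 left out of the 6 libraries, with W3.5 libraries left out, and with the MADS list left out of the stage lists were chosen after seeing the data.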

Other observations

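Genes called lower in mads1 were unevenly spread over the chromosomes written in the identifiers. On 2H, 108 of 2877 tested genes were called lower (3.75%), against 2.21% of all genes and 1.34% to 2.48% on the other 6 chromosomes. The chromosome held 27.6% of the lower calls and 16.2% of the genes tested, and 24.1% of the lower calls without WT replicate 2. Calls in the higher direction were at 2.71% on 2H and 2.03% to 2.90% elsewhere, unplaced identifiers aside. Within 2H, identifiers with a running number under 50000 had 70 of 1049 called lower (6.67%) and the others 38 of 1828 (2.08%), a split chosen after the values were seen. In these counts an effect of HvMADS1 and other differences between the mutant and WT plants cannot be told apart. Next to HvMADS1 itself on 4H, 2 of the 50 nearest tested identifiers were called, both higher, or 4%, close to the 4.82% of all genes.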
